A study of Mus musculus with 12 samples.

Results

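The 10 genes Acly, Acaca, Fasn, Scd1, Scd2, Elovl6, Fads1, Fads2, Acss2 and Me1 encode the main enzymes that build fatty acids from acetyl-CoA and then lengthen and desaturate them. They were taken by gene symbol from the deposited table of raw counts, which holds 55487 genes, and all 10 were among the 16808 genes with enough counts to be tested. RNA was measured by mRNA sequencing in Min6, a beta cell line from a mouse insulinoma, in 12 libraries of 4 groups with 3 libraries each. Cells had been treated for 48 h with 1 µM AS1842856, an inhibitor of the transcription factor FoxO1, together with 5 µM loperamide (FoxOi_Loperamide), with the inhibitor alone (FoxOi), with loperamide alone, an opioid receptor agonist used against diarrhoea (Loperamide), or with the solvent (DMSO). All groups are cultures of 1 cell line, and since nothing in the labels tells separate cultures from repeat preparations of 1 culture, p-values measure only the spread between these libraries.

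Fatty acid synthesis begins with citrate that leaves the mitochondrion and is split by ATP citrate lyase into acetyl-CoA, which acetyl-CoA carboxylase turns into malonyl-CoA and fatty acid synthase condenses into palmitate with NADPH. Elongases add carbons to palmitate, and desaturases of the endoplasmic reticulum introduce double bonds. In liver the genes respond to insulin through SREBP-1c and to glucose through ChREBP. In beta cells little palmitate is made compared with liver, and malonyl-CoA is best known there as a signal that restrains fatty acid oxidation when glucose is high.

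Total counts per library ran from 10640485 to 19499216, and the 10 genes together took 0.461% to 0.748% of them. All 8 beta cell markers examined were detected, and their summed level was 26779 to 31575 CPM with FoxOi_Loperamide, 34623 to 39431 with FoxOi, 62698 to 63116 with Loperamide and 61035 to 84669 in DMSO (CPM, counts scaled to the TMM-adjusted library size). Ins2 and Iapp gave most of these counts (2131904 and 830298 in DMSO, against 13928 for Nkx6-1), so the sum mainly follows them. In raw counts summed over the 3 libraries of a group, the other markers except G6pc2 and Slc30a8 were lower with FoxOi and FoxOi_Loperamide than in DMSO. Slc30a8 had 18696 counts with FoxOi_Loperamide, 17551 with FoxOi and 17519 in DMSO, and G6pc2 had 82644, 93522 and 75475. These sums are not scaled for depth, and total counts were 17080681 to 19499216 with FoxOi against 14358011 to 17045589 in DMSO. They therefore do not show that either gene kept its level. Adipocytes also make fatty acids, but their 7 markers summed to 0.666 CPM or less in every library, and Adipoq had 1 count in the whole data set. The 5 fibroblast markers summed to 4.31 CPM or less. The 6 macrophage markers summed to 7.31 to 7.67 CPM with FoxOi_Loperamide, 21.6 to 22.9 with FoxOi, 4.26 to 4.67 with Loperamide and 4.55 to 6.07 in DMSO, with Cd68 giving most of the counts with FoxOi, and the part of this difference in the results was not tested. In bulk RNA, fewer cells of a type and less RNA per cell cannot be told apart.

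Per length, the genes spanned a wide range of levels in DMSO cells. Mean FPKM in DMSO was 815 for Acly, 197 for Scd2, 103 for Fads1, 102 for Fads2, 46.1 for Fasn, 39.1 for Me1, 18.7 for Scd1, 8.23 for Acss2, 6.78 for Acaca and 5.27 for Elovl6, a 155-fold span. The DMSO libraries of Fads1 and Fads2 overlapped (98.4 to 106 and 99.2 to 103 FPKM), while those of the other neighbours in this order did not. Acly, Scd2 and Fads1 held the top places in that order in all 4 groups. Fasn overtook Fads2 with FoxOi_Loperamide, at 106 to 122 FPKM for Fasn against 92.4 to 96.5 for Fads2. Elovl6 was lowest with Loperamide and in DMSO, while Acss2 was lowest with FoxOi_Loperamide and FoxOi.

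**Figure D1:**
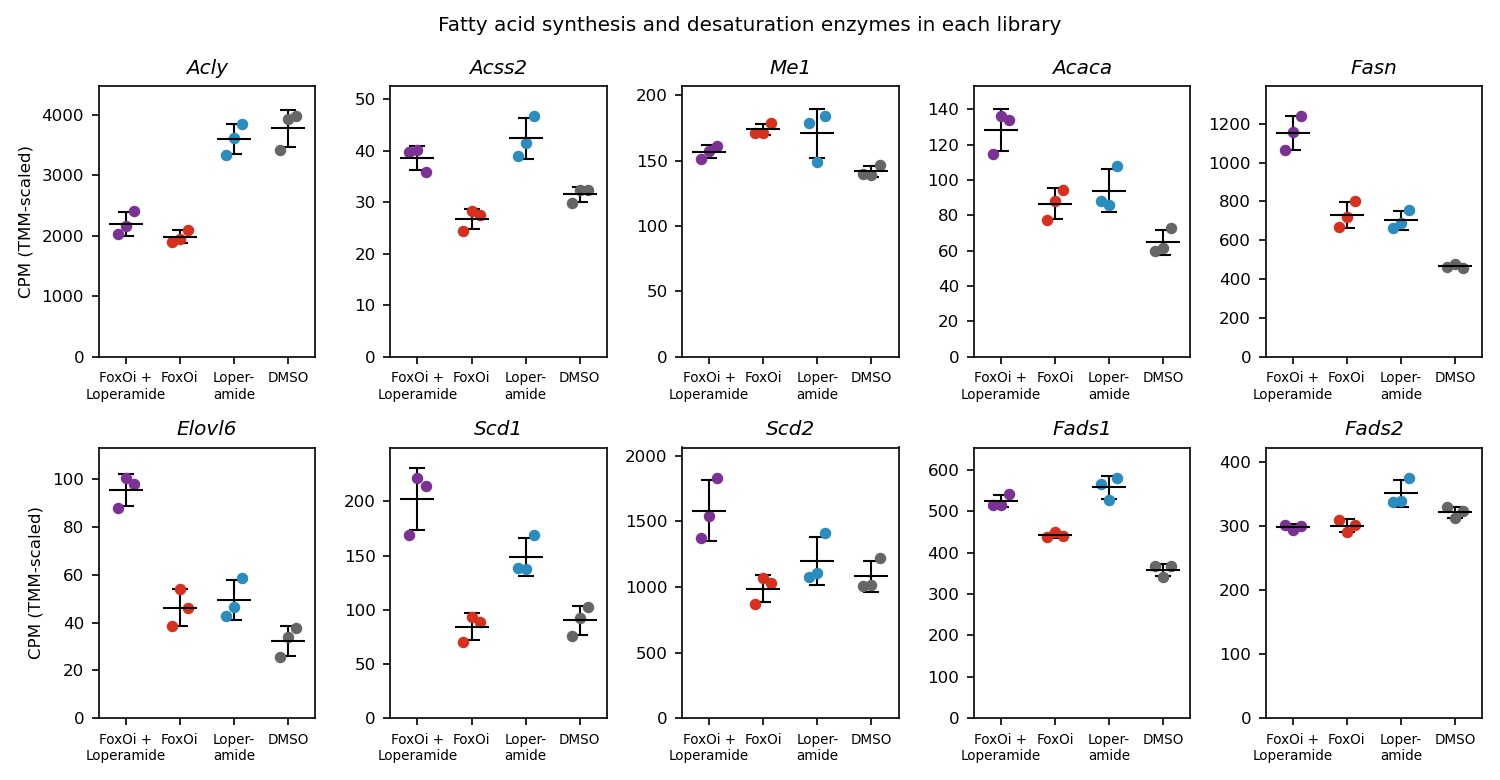
Level of each gene in each library, in CPM on a linear axis that starts at 0 and differs between panels, with FoxOi_Loperamide, FoxOi, Loperamide and DMSO from left to right. Points are single libraries, and the lines give the mean and SD of 3. Acly is lower in both groups with the inhibitor, while Fasn, Acaca and Elovl6 are highest in FoxOi_Loperamide.

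Most of the genes were higher with both compounds, and Acly was the one that was lower. With FoxOi_Loperamide against DMSO, 7 of the 10 genes rose, Acly fell, and Fads2 and Me1 were not called (edgeR quasi-likelihood test, at a Benjamini-Hochberg adjusted p below 0.05 across the 16808 genes). Of all tested genes, 45.5% were called in this comparison, 22.3% higher and 23.2% lower. The median log2 fold change was 0.55 over the 10 genes and 0.01 over all tested genes. The rises of Elovl6, Fasn and Scd1 passed 2-fold. In all 10 genes the 3 FoxOi_Loperamide libraries did not overlap the 3 DMSO libraries, which held for 52.1% of all tested genes.

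FoxOi against DMSO asked what the inhibitor does alone. Acaca, Fasn, Elovl6, Fads1 and Me1 rose, Acly fell and the other 4 were not called. Of all tested genes, 40.9% were called, 20.7% higher and 20.3% lower, and the median log2 fold change was 0.10 over the 10 genes and 0.01 over all. The groups did not overlap in 8 of the 10 genes and in 48.4% of all tested genes.

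Loperamide against DMSO asked the same of loperamide. Acaca, Fasn, Scd1, Elovl6, Fads1, Acss2 and Me1 rose, no gene of the 10 was called lower (0 by edgeR at an adjusted or an unadjusted p under 0.05, by DESeq2 and by limma), and Acly, Scd2 and Fads2 were not called. Of all tested genes, 31.9% were called, 16.1% higher and 15.8% lower, and the median log2 fold change was 0.48 over the 10 genes and 0.02 over all. The groups did not overlap in 8 of the 10 genes and in 43.1% of all tested genes. The 3 comparisons with DMSO share the DMSO libraries, so their values are given side by side and not as independent repeats.

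**Figure D2:**
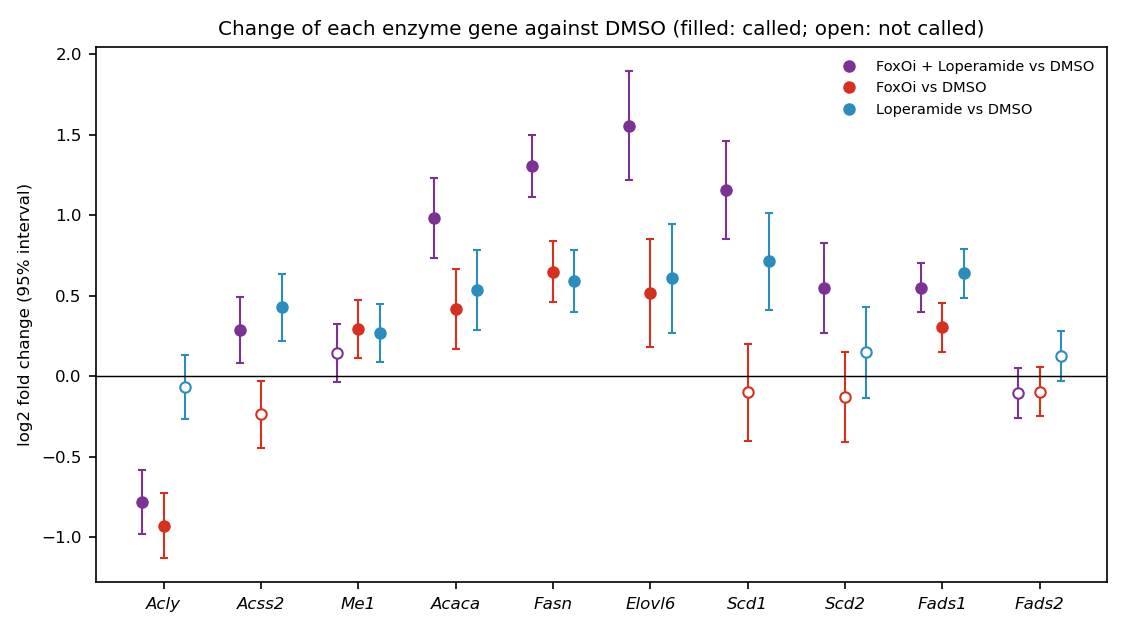
Log2 fold change of each gene against DMSO, with its 95% interval, for FoxOi_Loperamide, FoxOi and Loperamide. Filled points were called at an adjusted p under 0.05 and open points were not. Acly lies below 0 with FoxOi_Loperamide and FoxOi, and Elovl6 has the highest value with FoxOi_Loperamide.

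Acly encodes ATP citrate lyase, the source of cytosolic acetyl-CoA from citrate (ENSMUSG00000020917, GRCm38 chromosome 11, 100476353 to 100528000, minus strand). It had 2022, 2154 and 2411 CPM with FoxOi_Loperamide, 1901, 1944 and 2102 with FoxOi, 3340, 3615 and 3841 with Loperamide, and 3416, 3927 and 3978 in DMSO. The 6 libraries with the inhibitor all lay below the 6 without it, and Loperamide and DMSO overlapped. Acly fell by 0.93 ± 0.09 on the log2 scale with FoxOi against DMSO (SE, edgeR adjusted p = 2.38e-06), or by 47.5%. It fell by 0.78 ± 0.09 with FoxOi_Loperamide against DMSO (edgeR adjusted p = 9.25e-06). With Loperamide the log2 fold change was -0.07 ± 0.09, with a 95% interval from -0.27 to 0.13 (edgeR adjusted p = 0.616).

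Acss2 encodes the cytosolic acetyl-CoA synthetase, which makes acetyl-CoA from acetate (ENSMUSG00000027605, chromosome 2, 155517948 to 155585724, plus strand). It had 39.7, 40.1 and 35.9 CPM with FoxOi_Loperamide, 24.5, 28.3 and 27.5 with FoxOi, 39.0, 41.5 and 46.7 with Loperamide, and 29.9, 32.4 and 32.4 in DMSO. Both groups with loperamide lay above both groups without it. Acss2 rose with Loperamide, by 0.43 ± 0.10 on the log2 scale (edgeR adjusted p = 0.00363). With FoxOi_Loperamide it was called at 0.29 ± 0.10 (edgeR adjusted p = 0.0236), a call lost without FoxOi_Loperamide replicate 1 (adjusted p = 0.0679) or 2 (0.0768), without DMSO replicate 1 (0.0914), and with no filter on low counts (0.0552). With FoxOi the log2 fold change was -0.24 ± 0.10 and was not called (edgeR adjusted p = 0.0641), though it was without DMSO replicate 1 (-0.31, adjusted p = 0.0348). The gene overlaps Ggt7 and Gss on the other strand, and the strand setting of the counting is not given in the sources used here. Gss was itself called higher with FoxOi_Loperamide and FoxOi, at 0.50 ± 0.12 and 0.49 ± 0.12.

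Me1 encodes the cytosolic malic enzyme, which yields NADPH (ENSMUSG00000032418, chromosome 9, 86581371 to 86695953, minus strand). It had 151, 157 and 161 CPM with FoxOi_Loperamide, 171, 171 and 179 with FoxOi, 179, 149 and 184 with Loperamide, and 140, 139 and 146 in DMSO. All 9 treated libraries lay above the 3 DMSO libraries. Me1 was called with FoxOi at 0.29 ± 0.08 on the log2 scale (edgeR adjusted p = 0.0116), which was no longer called without DMSO replicate 2 (0.0636). It was called with Loperamide at 0.27 ± 0.08 (edgeR adjusted p = 0.0248), a call lost without Loperamide replicate 1 (0.0904) or 3 (0.115), without DMSO replicate 1 (0.0800) or 2 (0.0972), with no filter (0.0792), and in the fit to those groups alone (0.0702). With FoxOi_Loperamide it was at 0.15 ± 0.08 (edgeR adjusted p = 0.178). Scaled by library totals, that value was 0.30 and was called (adjusted p = 0.00744). Of the 50-base stretches of its transcripts, 32.8% also occur in other genes, chiefly the predicted gene Gm7049, which itself had 453 to 949 counts per library, so its level is uncertain.

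Acaca encodes acetyl-CoA carboxylase 1, which makes the malonyl-CoA used for synthesis (ENSMUSG00000020532, chromosome 11, 84129672 to 84401651, plus strand). It had 115, 136 and 134 CPM with FoxOi_Loperamide, 77.1, 88.0 and 94.4 with FoxOi, 88.3, 85.9 and 108 with Loperamide, and 59.8, 61.6 and 72.9 in DMSO. The FoxOi_Loperamide libraries were all above those of the single compounds, which overlapped each other and lay above DMSO. Acaca rose by 0.98 ± 0.12 on the log2 scale with FoxOi_Loperamide (edgeR adjusted p = 7.6e-06) and by 0.54 ± 0.12 with Loperamide (edgeR adjusted p = 0.00265). With FoxOi it was called at 0.42 ± 0.12 (edgeR adjusted p = 0.00932), which was no longer called without DMSO replicate 2 (0.36, adjusted p = 0.0530). More than any other of the 10 genes, Acaca shares sequence, with 52.6% of its 50-base stretches also in the predicted gene Gm5182. Gm5182 had 257 to 938 counts per library and was itself at 1.10 ± 0.23 with FoxOi_Loperamide against DMSO, so reads could have been split between them.

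Fasn encodes fatty acid synthase, which assembles palmitate (ENSMUSG00000025153, chromosome 11, 120805846 to 120824547, minus strand). It had 1062, 1159 and 1239 CPM with FoxOi_Loperamide, 670, 720 and 803 with FoxOi, 662, 688 and 755 with Loperamide, and 461, 477 and 458 in DMSO. The 3 DMSO libraries lay below all 9 others, the single compounds overlapped, and FoxOi_Loperamide lay above everything else. Fasn rose by 1.31 ± 0.09 on the log2 scale with FoxOi_Loperamide, a 2.48-fold change (edgeR adjusted p = 3.48e-08). It rose by 0.65 ± 0.09 with FoxOi (edgeR adjusted p = 3.98e-05) and by 0.59 ± 0.09 with Loperamide (edgeR adjusted p = 0.000155). No 50-base stretch of Fasn or of Acly was found in another gene (0% of each).

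Elovl6 encodes the elongase that takes palmitate to stearate (ENSMUSG00000041220, chromosome 3, 129532355 to 129638495, plus strand). It had 87.8, 101 and 97.8 CPM with FoxOi_Loperamide, 38.7, 53.9 and 46.2 with FoxOi, 42.8, 46.4 and 58.8 with Loperamide, and 25.6, 33.8 and 37.9 in DMSO. Every FoxOi_Loperamide library lay above every library of the other groups, and the DMSO libraries were the lowest. The rise with FoxOi_Loperamide was 1.56 ± 0.16 on the log2 scale, or 2.94-fold (edgeR adjusted p = 2.08e-06), and 1.74% of tested genes had a higher log2 fold change in that comparison. With FoxOi it was called at 0.52 ± 0.16 (edgeR adjusted p = 0.0167), a call lost without FoxOi replicate 2 (0.39, adjusted p = 0.0844), without DMSO replicate 1 (0.33, adjusted p = 0.0891), and on unfiltered FPKM (0.0757). With Loperamide it was called at 0.61 ± 0.16 (edgeR adjusted p = 0.00921), a call lost without Loperamide replicate 3 (0.46, adjusted p = 0.0512).

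The start regions of 3 of these genes are printed to set the member with the highest fold change, the synthase and the member that fell side by side. RefSeq promoter windows of GRCm38.p6 (250 bases before to 50 after each start) were found for 7 of the 10 genes. The stretches run 5′ to 3′ on the gene's strand and end just before the gene start of the deposited table, with Fasn at chr11:120824548-120824797 (minus), Elovl6 at chr3:129532136-129532354 (plus) and Acly at chr11:100528001-100528250 (minus). Capitals mark CCAAT, the letters of the NF-Y box, on either strand in Fasn, and GTAAACA, the letters of a FoxO site, in Elovl6. The printed stretch of Acly has neither.
Fasn: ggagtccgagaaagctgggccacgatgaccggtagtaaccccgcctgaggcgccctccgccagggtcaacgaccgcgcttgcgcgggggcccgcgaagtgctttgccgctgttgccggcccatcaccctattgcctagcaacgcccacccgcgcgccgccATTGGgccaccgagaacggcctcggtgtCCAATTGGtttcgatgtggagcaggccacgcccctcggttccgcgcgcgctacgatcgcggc
Elovl6: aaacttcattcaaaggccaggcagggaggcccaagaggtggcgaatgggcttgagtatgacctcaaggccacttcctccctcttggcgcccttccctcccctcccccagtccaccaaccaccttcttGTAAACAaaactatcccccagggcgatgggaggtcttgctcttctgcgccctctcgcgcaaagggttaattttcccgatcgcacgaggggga
Acly: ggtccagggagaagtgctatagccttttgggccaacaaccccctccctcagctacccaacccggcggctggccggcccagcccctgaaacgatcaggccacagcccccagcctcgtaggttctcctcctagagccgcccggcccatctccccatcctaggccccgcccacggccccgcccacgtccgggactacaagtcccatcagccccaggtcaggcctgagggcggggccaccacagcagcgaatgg

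Searched on both strands of 32851 RefSeq windows, GTAAACA occurred in 3.65% and CCAAT in 37.4%, and of the 7 windows in 1 (Elovl6) and 3 (Acly, Fasn and Acss2). The match in Acly lies after its start, outside the printed stretch, and 2 of the 3 matches in Fasn overlap as CCAATTGG. GGGCGG, the GC box, was in 35.7% of all windows and in 4 of the 7 (Acly, Fads2, Acss2 and Me1). CACGTG, the E-box that ChREBP and USF factors bind, was in 7.15% of all windows and 0 of the 7. TCACNCCAC, the sterol regulatory element, was in 1.24% and 0 of the 7. No overlap between different motifs was scored, and the window of Acaca lies 65766 bases from the gene start in the table. A match is a description of letters, and these windows do not cover sites further away.

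Scd1 and Scd2 encode stearoyl-CoA desaturases, which put the first double bond into palmitate and stearate (ENSMUSG00000037071, chromosome 19, 44394455 to 44407879, minus strand, and ENSMUSG00000025203, chromosome 19, 44293674 to 44306864, plus strand). Scd1 had 169, 222 and 215 CPM with FoxOi_Loperamide, 70.7, 93.8 and 89.1 with FoxOi, 139, 138 and 169 with Loperamide, and 76.3, 92.3 and 103 in DMSO. Both groups with loperamide lay above both groups without it, and FoxOi overlapped DMSO. Scd1 rose by 1.16 ± 0.14 on the log2 scale with FoxOi_Loperamide (2.23-fold, edgeR adjusted p = 1.19e-05) and by 0.71 ± 0.14 with Loperamide (edgeR adjusted p = 0.00144). With FoxOi it was at -0.10 ± 0.14, with a 95% interval from -0.40 to 0.20 (edgeR adjusted p = 0.609).

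Scd2, the more abundant desaturase per length here, had 1371, 1539 and 1833 CPM with FoxOi_Loperamide, 868, 1067 and 1029 with FoxOi, 1078, 1103 and 1411 with Loperamide, and 1004, 1018 and 1219 in DMSO. The FoxOi_Loperamide libraries lay above DMSO, while FoxOi and Loperamide each overlapped DMSO. Scd2 rose by 0.55 ± 0.13 on the log2 scale with FoxOi_Loperamide (edgeR adjusted p = 0.00338). It was at -0.13 ± 0.13 with FoxOi (edgeR adjusted p = 0.463) and at 0.15 ± 0.13 with Loperamide (edgeR adjusted p = 0.422). Scd1 shares 4.66% and Scd2 4.01% of their 50-base stretches with other genes of the family. The related Scd3 and Scd4 were not called in any of the 3 comparisons with DMSO, at 0.57 ± 0.33 and 0.53 ± 0.49 with FoxOi_Loperamide.

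Fads1 and Fads2 lie next to each other on chromosome 19 and encode the delta-5 and delta-6 desaturases, which make polyunsaturated fatty acids from those of the diet (ENSMUSG00000010663, 10182888 to 10196877, plus strand, and ENSMUSG00000024665, 10062765 to 10101746, minus strand). Fads1 had 516, 515 and 542 CPM with FoxOi_Loperamide, 438, 449 and 439 with FoxOi, 566, 527 and 581 with Loperamide, and 367, 340 and 367 in DMSO. FoxOi lay above DMSO and below both groups with loperamide, which overlapped each other. Fads1 rose by 0.55 ± 0.07 on the log2 scale with FoxOi_Loperamide (edgeR adjusted p = 2.08e-05), by 0.30 ± 0.07 with FoxOi (edgeR adjusted p = 0.0033) and by 0.64 ± 0.07 with Loperamide (edgeR adjusted p = 1.23e-05).

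Fads2 had 303, 293 and 301 CPM with FoxOi_Loperamide, 310, 291 and 302 with FoxOi, 338, 339 and 376 with Loperamide, and 330, 312 and 323 in DMSO. Its 12 libraries stayed closer together than those of its neighbour, and no comparison with DMSO was called (0 by edgeR at an adjusted or an unadjusted p under 0.05, by DESeq2 and by limma). The log2 fold change was -0.10 ± 0.07 with FoxOi_Loperamide, with a 95% interval from -0.26 to 0.05, and -0.10 ± 0.07 with FoxOi. With Loperamide it was 0.13 ± 0.07 (edgeR adjusted p = 0.198), and scaled by library totals it was 0.22 and called (adjusted p = 0.0223). That scaling moved the median of all tested genes to 0.17 with FoxOi_Loperamide, 0.11 with FoxOi and 0.12 with Loperamide against DMSO.

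Adding loperamide to the inhibitor was followed by comparing FoxOi_Loperamide with FoxOi. Acaca, Fasn, Scd1, Scd2, Elovl6, Fads1 and Acss2 rose, and Acly, Fads2 and Me1 were not called. Of all tested genes, 26.6% were called, 11.5% higher and 15.1% lower, and the median log2 fold change was 0.55 over the 10 genes and 0.00 over all. The groups did not overlap in 8 of the 10 genes and in 40.8% of all tested genes. Scd1 had the highest value of the 10, 1.26 ± 0.14 on the log2 scale or 2.39-fold (edgeR adjusted p = 1.19e-05), and 0.732% of tested genes had a higher one. Elovl6 rose by 1.04 ± 0.15 (2.06-fold, edgeR adjusted p = 0.000159), Scd2 by 0.68 ± 0.13, Fasn by 0.66 ± 0.09, Acaca by 0.57 ± 0.11 and Acss2 by 0.53 ± 0.10. Fads1 was called at 0.25 ± 0.07 (edgeR adjusted p = 0.0196), a call lost without FoxOi_Loperamide replicate 3 (0.0693) or FoxOi replicate 3 (0.0520).

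Adding the inhibitor to loperamide was followed by comparing FoxOi_Loperamide with Loperamide. Acaca, Fasn, Scd1, Scd2 and Elovl6 were called higher and Acly and Fads2 lower. Of all tested genes, 38.9% were called, 18.4% higher and 20.5% lower, and the median log2 fold change was 0.16 over the 10 genes and -0.01 over all. The groups did not overlap in 6 of the 10 genes and in 50.3% of all tested genes. Elovl6 rose by 0.95 ± 0.15 on the log2 scale (edgeR adjusted p = 0.000252), Fasn by 0.72 ± 0.09 (edgeR adjusted p = 2.09e-05) and Acaca by 0.45 ± 0.11 (edgeR adjusted p = 0.00654), while Acly fell by 0.71 ± 0.09 (edgeR adjusted p = 3.5e-05).

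The other 3 calls in that comparison depended on single libraries. Scd1 was called at 0.44 ± 0.14 (edgeR adjusted p = 0.021), a call lost without FoxOi_Loperamide replicate 2 (0.0850) or 3 (0.0686), without Loperamide replicate 1 (0.0744) or 2 (0.0826), and on unfiltered FPKM (0.0719). Scd2 was called at 0.40 ± 0.13 (edgeR adjusted p = 0.0254), a call lost without FoxOi_Loperamide replicate 3 (0.125), without Loperamide replicate 1 or 2 (0.101 each), and on unfiltered FPKM (0.0800). Fads2 was called at -0.23 ± 0.07 (edgeR adjusted p = 0.0192), a call lost without FoxOi_Loperamide replicate 2 (0.0669) or Loperamide replicate 3 (0.102), with library totals (0.0683), with no filter (0.147), and in the fit to those groups alone (0.0634).

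FoxOi was also compared directly with Loperamide, which sets 2 different compounds at different doses side by side. Acly, Scd1, Fads1, Fads2 and Acss2 were lower with FoxOi and no gene of the 10 was called higher (0 by edgeR at an adjusted or an unadjusted p under 0.05, by DESeq2 and by limma). Of all tested genes, 49.6% were called, 25.5% higher and 24.1% lower, and the median log2 fold change was -0.25 over the 10 genes and 0.02 over all. The groups did not overlap in 6 of the 10 genes and in 57.5% of all tested genes. The log2 fold changes were -0.86 ± 0.09 for Acly, -0.81 ± 0.14 for Scd1, -0.67 ± 0.10 for Acss2 and -0.34 ± 0.07 for Fads1. Fads2 was called at -0.22 ± 0.07 (edgeR adjusted p = 0.0186), a call lost without FoxOi replicate 2 (0.0712), without Loperamide replicate 3 (0.0980), and with no filter (0.0837). Scd2 was at -0.28 ± 0.13 and was not called (edgeR adjusted p = 0.0943), though its groups did not overlap and 2 other fits called it, the one blocked on the replicate number (0.000649) and the unfiltered one (0.0107). For Acaca, Fasn, Elovl6 and Me1 the differences lay between -0.12 and 0.06 and were not called, with 95% intervals from -0.37 to 0.13, -0.13 to 0.25, -0.43 to 0.24 and -0.16 to 0.21.

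The interaction asked whether the log2 effect of loperamide differed with the inhibitor present from its effect without it. Of the 10 genes, 2 were called, Fads1 and Me1, both lower than the sum of the single effects, against 9.48% of all tested genes, 3.66% higher and 5.82% lower. For Fads1 the single log2 fold changes sum to 0.94, the combination gave 0.55, and the interaction was -0.39 ± 0.10 (edgeR adjusted p = 0.0221). For Me1 the sum was 0.56, the combination gave 0.15, and the interaction was -0.42 ± 0.12 (edgeR adjusted p = 0.0391). The Fads1 call was lost with no filter (0.118) and without FoxOi_Loperamide replicate 1 (0.0558) or 2 (0.0605), FoxOi replicate 1 (0.0628) or 2 (0.0543), Loperamide replicate 1 (0.0532) or 3 (0.0677), and DMSO replicate 1 (0.0534) or 2 (0.119). The Me1 call was lost with no filter (0.126), on unfiltered FPKM (0.0529), and when any library but Loperamide replicate 2 was left out, with adjusted p of 0.0899, 0.0829 and 0.0566 without FoxOi_Loperamide replicates 1, 2 and 3, 0.0845, 0.0698 and 0.0891 without FoxOi replicates 1, 2 and 3, 0.0974 and 0.110 without Loperamide replicates 1 and 3, and 0.0996, 0.136 and 0.0538 without DMSO replicates 1, 2 and 3.

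For Fasn the sum was 1.24 and the combination 1.31, with an interaction of 0.07 and a 95% interval from -0.20 to 0.33. For Acaca the sum was 0.96 and the combination 0.98, with an interval of the interaction from -0.32 to 0.38. For Acly the sum was -0.997 and the combination -0.78, with an interaction of 0.22 ± 0.13 that was not called (edgeR adjusted p = 0.362), though a fit blocked on the replicate number called it (0.0457). The desaturases of the Scd family and Elovl6 had higher interaction values that were not called. Scd2 was at 0.53 ± 0.19 (edgeR adjusted p = 0.0922), Scd1 at 0.54 ± 0.20 (edgeR adjusted p = 0.107) and Elovl6 at 0.43 ± 0.22 (edgeR adjusted p = 0.257). Scd1 and Scd2 were called with no filter on low counts (adjusted p = 0.00379 and 0.000508), Scd1 without DMSO replicate 1 (0.0267) and Scd2 without Loperamide replicate 3 (0.0365). The edgeR fit blocked on the replicate number called Scd1 (adjusted p = 0.000164), Scd2 (6.55e-05) and Elovl6 (0.00774).

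**Figure D3:**
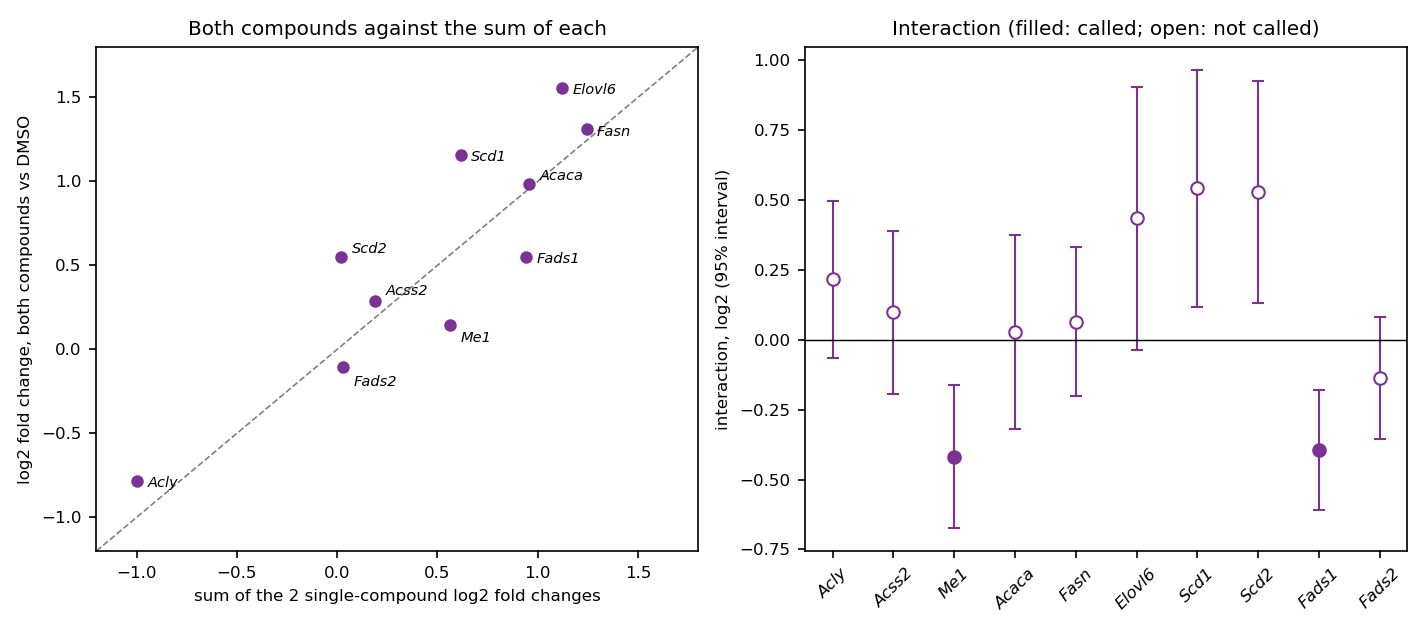
Log2 fold change of FoxOi_Loperamide against DMSO plotted over the sum of the log2 fold changes of FoxOi and Loperamide against DMSO, for each gene, with the diagonal of equal values. All values use the same DMSO libraries. Fads1 (0.55 against a sum of 0.94) and Me1 (0.15 against 0.56) lie below the diagonal, and Elovl6 (1.56 against 1.12), Scd1 and Scd2 lie above it.

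The balance between related enzymes was read as ratios of FPKM within each library, which do not depend on library scaling. The ratio of Acly to Fasn was 4.05 to 4.24 with FoxOi_Loperamide, 5.71 to 6.18 with FoxOi, 11.0 to 11.4 with Loperamide and 16.2 to 18.9 in DMSO, with no overlap between any groups. The ratio of Fads1 to Fads2 was 1.55 to 1.64 with FoxOi_Loperamide, 1.29 to 1.40 with FoxOi, 1.41 to 1.52 with Loperamide and 0.992 to 1.03 in DMSO. The DMSO libraries had near equal levels of both genes per length, and the 9 treated libraries all had more Fads1. Scd1 made up 11.7% to 14.0% of the summed FPKM of Scd1 and Scd2 with FoxOi_Loperamide, 8.42% to 9.03% with FoxOi, 11.9% to 12.7% with Loperamide and 7.90% to 9.29% in DMSO. By this share the groups with loperamide stood above the groups without it. The ratio of Fasn to Acaca was 8.06 to 8.77 with FoxOi_Loperamide, 7.75 to 8.22 with FoxOi, 6.64 to 7.58 with Loperamide and 5.94 to 7.34 in DMSO, where FoxOi_Loperamide overlapped FoxOi and Loperamide overlapped DMSO. The ratio of Elovl6 to Fasn was 0.129 to 0.142 with FoxOi_Loperamide, 0.0943 to 0.123 with FoxOi, 0.106 to 0.128 with Loperamide and 0.0909 to 0.136 in DMSO, and the DMSO range overlapped those of all 3 treated groups.

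**Figure D4:**
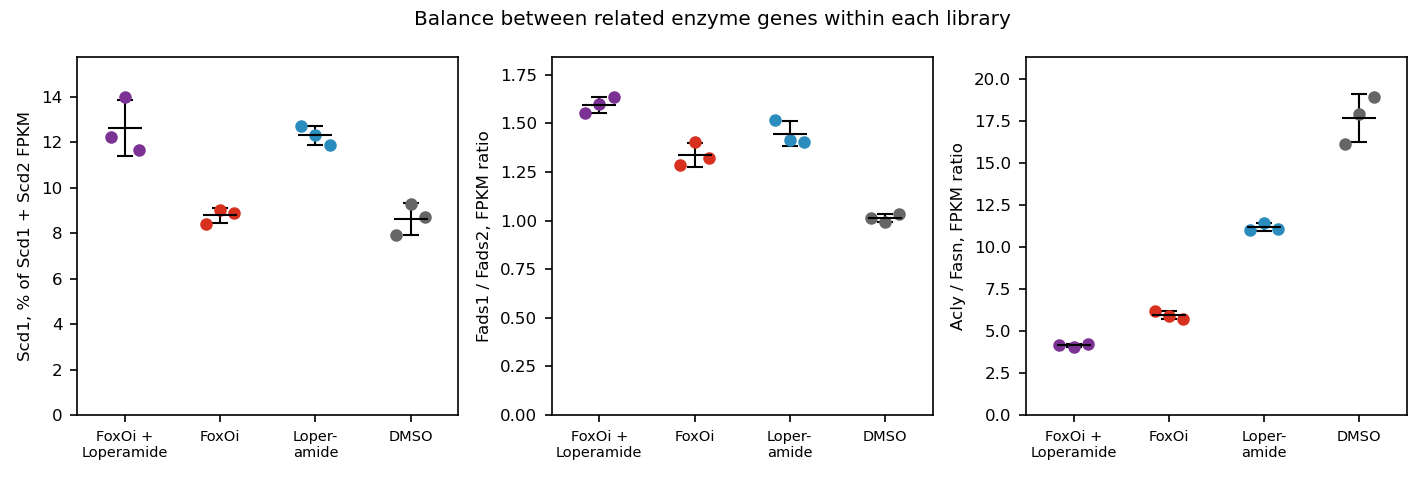
Ratios of FPKM within each library for Scd1 as a percentage of Scd1 plus Scd2, Fads1 over Fads2, and Acly over Fasn, on linear axes that start at 0. Points are single libraries and lines the mean and SD of 3. Acly over Fasn is lowest with FoxOi_Loperamide, next with FoxOi, then Loperamide, and highest in DMSO, without overlap.

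Genes that surround the pathway were read from 6 lists of 108 genes, of which 97 were tested, and their rises and falls are given as log2 fold changes ± SE. Over all tested genes, 22.3% were called higher and 23.2% lower with FoxOi_Loperamide, 20.7% and 20.3% with FoxOi, and 16.1% and 15.8% with Loperamide. The counts of each list stand beside these shares, and no list was tested as a set. Of 19 tested regulators of fatty acid synthesis, 4 rose and 7 fell with FoxOi_Loperamide (list median log2 fold change 0.02), 2 rose and 7 fell with FoxOi (-0.05), and 7 rose and 2 fell with Loperamide (0.20). Mlxipl, which encodes the glucose-responsive factor ChREBP, had 86.7, 57.4 and 54.9 CPM with FoxOi_Loperamide, 55.5, 35.9 and 41.2 with FoxOi, 782, 806 and 704 with Loperamide, and 530, 483 and 361 in DMSO. It fell by 2.79 ± 0.21 on the log2 scale with FoxOi_Loperamide (edgeR adjusted p = 3.65e-07) and fell by 3.37 ± 0.21 with FoxOi (edgeR adjusted p = 1.31e-07), and rose by 0.74 ± 0.19 with Loperamide (edgeR adjusted p = 0.0118). Of the 10 genes, Acaca, Fasn, Elovl6 and Fads1 were called higher in each of these comparisons, with the limits given above. Acly fell with FoxOi_Loperamide and FoxOi, and Scd1 was not called with FoxOi. Any part of Mlxipl in the values of the 10 genes was not tested.

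Srebf1, which encodes SREBP-1, averaged 200 ± 19.7 CPM with FoxOi_Loperamide, 166 ± 11.0 with FoxOi, 235 ± 5.95 with Loperamide and 259 ± 36.9 in DMSO (SD, n = 3). It fell by 0.64 ± 0.11 with FoxOi (edgeR adjusted p = 0.000209). With FoxOi_Loperamide it was called at -0.38 ± 0.11 (edgeR adjusted p = 0.00895), a call lost with library totals (0.0831) and without FoxOi_Loperamide replicate 2 (0.0525), and with Loperamide it was at -0.14 ± 0.11 (edgeR adjusted p = 0.328). Insig1, the SREBP-retaining protein of the endoplasmic reticulum and itself a sterol-responsive gene, rose by 0.89 ± 0.13 with FoxOi_Loperamide, 0.57 ± 0.13 with FoxOi and 1.04 ± 0.13 with Loperamide. Nr1h3, the LXR alpha gene, was low at 4.49 ± 0.97 CPM in DMSO and was not called in any comparison with DMSO, at 0.02 ± 0.18 with FoxOi_Loperamide, -0.05 ± 0.18 with FoxOi and -0.35 ± 0.20 with Loperamide, though the value with Loperamide was called without DMSO replicate 3 (-0.54, adjusted p = 0.0449). The relatives of Srebf1 and Nr1h3 differed from them. Srebf2 was called higher at 0.63 ± 0.12 with FoxOi_Loperamide, 0.36 ± 0.12 with FoxOi and 0.74 ± 0.12 with Loperamide. Nr1h2 was called higher at 0.34 ± 0.10 with FoxOi_Loperamide and 0.72 ± 0.10 with Loperamide, and was not called with FoxOi (0.10 ± 0.10). Mbtps1, the protease that activates SREBPs, fell by 0.78 ± 0.09 with FoxOi_Loperamide and 0.81 ± 0.09 with FoxOi. Thrsp, a protein known to promote lipogenesis, fell by 1.73 ± 0.19 with FoxOi_Loperamide and by 1.22 ± 0.19 with Loperamide, and with FoxOi it was called at -0.44 ± 0.17 (edgeR adjusted p = 0.0489), a call lost with library totals (0.118), with no filter (0.0748), by DESeq2 (0.0588), in the fit to those groups alone (0.0653), and without any 1 of FoxOi replicates 1 to 3 or DMSO replicates 1 and 2 (0.0639 to 0.181).

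Of 19 other elongases, desaturases and elongation cycle enzymes, 7 rose and 4 fell with FoxOi_Loperamide (list median 0.00), 9 rose and 5 fell with FoxOi (0.35), and 4 rose and 3 fell with Loperamide (-0.02). Degs1, the desaturase of ceramide synthesis, rose by 1.42 ± 0.08 with FoxOi_Loperamide, 0.98 ± 0.08 with FoxOi and 0.87 ± 0.08 with Loperamide. Elovl4, an elongase of very long chains, rose by 1.06 ± 0.08, 0.73 ± 0.08 and 0.40 ± 0.08 in the same order. Elovl7, another elongase, averaged 42.2 ± 5.56 CPM with FoxOi_Loperamide, 77.7 ± 8.59 with FoxOi, 20.1 ± 2.68 with Loperamide and 14.4 ± 1.57 in DMSO (SD, n = 3). It rose by 1.55 ± 0.13 with FoxOi_Loperamide and 2.43 ± 0.14 with FoxOi. With Loperamide it was called at 0.48 ± 0.14 (edgeR adjusted p = 0.0152), a call lost without Loperamide replicate 3 (0.0812), without DMSO replicate 1 (0.0687) or 2 (0.0501), and on unfiltered FPKM (0.0634).

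Hsd17b12, the ketoacyl reductase of the elongation cycle, averaged 112 ± 0.245 CPM with FoxOi_Loperamide, 272 ± 12.9 with FoxOi, 74.0 ± 1.20 with Loperamide and 112 ± 6.35 in DMSO (SD, n = 3). It rose by 1.28 ± 0.07 with FoxOi (edgeR adjusted p = 1.16e-08) and fell by 0.60 ± 0.07 with Loperamide (edgeR adjusted p = 3.18e-05). With FoxOi_Loperamide it was at 0.00 ± 0.07 (edgeR adjusted p = 0.987).

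Of 14 tested genes of precursor and NADPH supply, 4 rose and 3 fell with FoxOi_Loperamide (list median -0.13), 2 rose and 4 fell with FoxOi (-0.10), and 1 rose and 8 fell with Loperamide (-0.26). Pdha1, a subunit of pyruvate dehydrogenase, rose by 0.64 ± 0.08 with FoxOi_Loperamide and 0.63 ± 0.08 with FoxOi. Slc25a11, the oxoglutarate carrier of mitochondria, fell by 0.47 ± 0.09 with FoxOi_Loperamide and 0.63 ± 0.09 with FoxOi. Idh2, the mitochondrial NADP-dependent isocitrate dehydrogenase, rose by 0.59 ± 0.09 with FoxOi_Loperamide and 0.43 ± 0.09 with Loperamide, and Mdh1, the cytosolic malate dehydrogenase, fell by 0.63 ± 0.09 with Loperamide. Of the members at this supply step, Acss2 rose with Loperamide, Me1 was called higher with the limits given above, and Acly was not called. In the same comparison 8 of these 14 genes fell, against 15.8% of all tested genes.

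Among 8 tested genes related to the synthase and carboxylase, none was called with FoxOi_Loperamide (0 by edgeR at an adjusted or an unadjusted p under 0.05, list median -0.05), 1 rose with FoxOi (-0.10) and 2 fell with Loperamide (0.05). The one that rose with FoxOi was Acacb, the carboxylase isoform tied to mitochondria, which was low at 1.67 ± 0.36 CPM with FoxOi and 0.745 ± 0.431 in DMSO (SD, n = 3). It was called at 1.18 ± 0.41 (edgeR adjusted p = 0.0299), a call lost without FoxOi replicate 1 (0.0721) or 3 (0.0930), without DMSO replicate 2 (0.144), and on FPKM (0.0558 to 0.0930). Those that fell with Loperamide were the mitochondrial synthesis genes Mecr, at -0.45 ± 0.14 (edgeR adjusted p = 0.0253), and Ndufab1, at -0.38 ± 0.12 (edgeR adjusted p = 0.0287). Both calls were lost with library totals (0.0682 and 0.0895), on unfiltered FPKM (0.0665 and 0.0835), and without Loperamide replicate 3 (0.119 and 0.126), DMSO replicate 1 (0.0901 and 0.104) or DMSO replicate 2 (0.0531 and 0.0633), and that of Mecr also without Loperamide replicate 2 (0.0533).

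Of 17 tested genes of fatty acid activation and esterification, 7 rose and 1 fell with FoxOi_Loperamide (list median 0.16), 9 rose and 3 fell with FoxOi (0.34), and 6 rose and 2 fell with Loperamide (0.11). Plin2, the coat protein of lipid droplets, averaged 39.9 ± 1.94 CPM with FoxOi_Loperamide, 23.8 ± 4.42 with FoxOi, 20.5 ± 1.10 with Loperamide and 11.3 ± 1.22 in DMSO (SD, n = 3). It rose by 1.82 ± 0.13 with FoxOi_Loperamide, 1.07 ± 0.13 with FoxOi and 0.86 ± 0.14 with Loperamide. Acsl3, an acyl-CoA synthetase, rose by 0.97 ± 0.12, 0.92 ± 0.12 and 0.60 ± 0.13, and the phosphatidate phosphatase Lpin2 by 1.06 ± 0.09, 1.08 ± 0.09 and 0.37 ± 0.09 in the same order. Its relative Lpin1 rose by 0.94 ± 0.14 with FoxOi_Loperamide and 1.56 ± 0.14 with Loperamide and fell by 0.53 ± 0.14 with FoxOi.

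Of 20 tested genes of fatty acid oxidation, 8 rose and 5 fell with FoxOi_Loperamide (list median 0.01), 4 rose and 6 fell with FoxOi (-0.12), and 2 rose and 3 fell with Loperamide (0.11). Hadh, a mitochondrial dehydrogenase of beta-oxidation, averaged 127 ± 7.24 CPM with FoxOi_Loperamide, 77.4 ± 6.28 with FoxOi, 191 ± 17.8 with Loperamide and 213 ± 18.2 in DMSO (SD, n = 3). It fell by 0.75 ± 0.10 with FoxOi_Loperamide and 1.46 ± 0.10 with FoxOi. Acadvl, which starts the oxidation of long chains, fell by 1.03 ± 0.08 with FoxOi_Loperamide, 0.68 ± 0.08 with FoxOi and 0.38 ± 0.08 with Loperamide. Cpt2, the inner carnitine palmitoyltransferase, fell by 0.95 ± 0.11 with FoxOi, and with FoxOi_Loperamide it was called at -0.43 ± 0.11 (edgeR adjusted p = 0.0056), a call lost with library totals (0.0538).

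**Figure D5:**
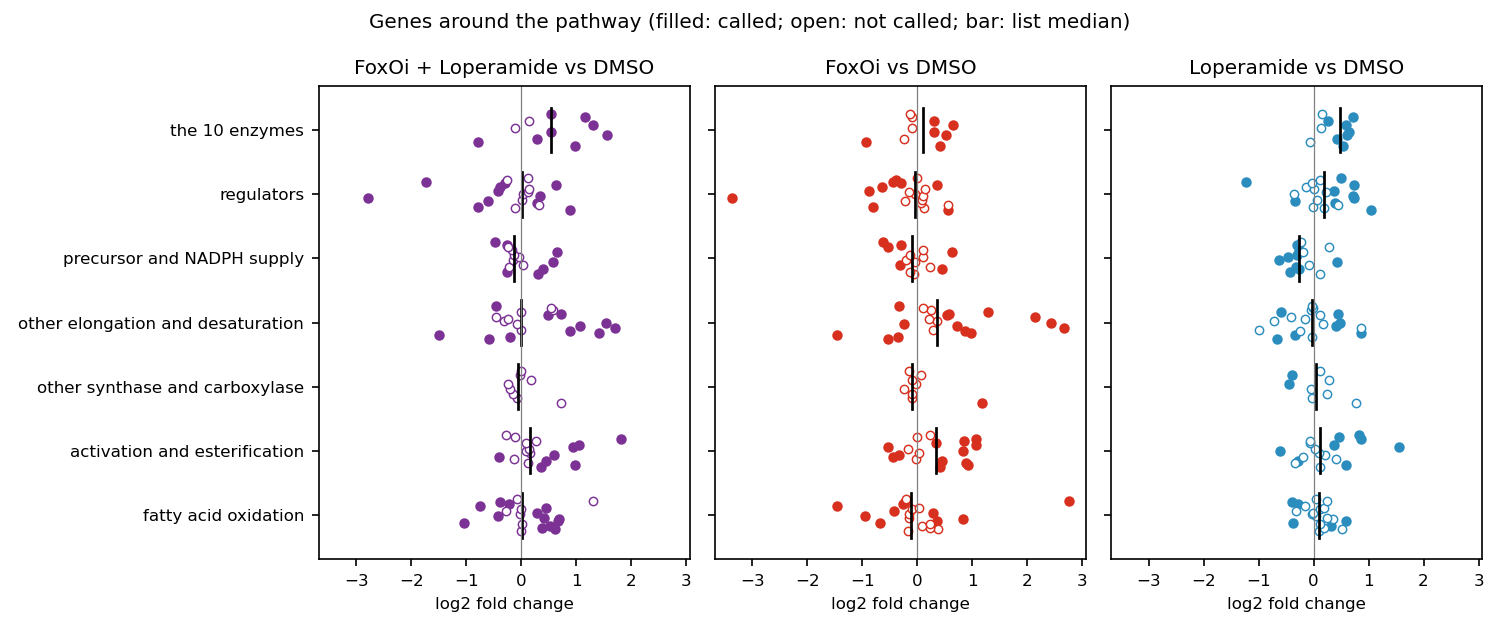
Log2 fold change of each tested gene of the 10 enzymes and of the 6 lists, in FoxOi_Loperamide, FoxOi and Loperamide against DMSO on a shared axis, with filled points called at an adjusted p under 0.05, open points not called, and a bar at the list median. The 10 enzymes have medians of 0.55, 0.10 and 0.48 in these panels, and the lowest point among the regulators with FoxOi_Loperamide and FoxOi is Mlxipl, at -2.79 and -3.37.

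For the 3 members whose group means ranged most, the genes with the most similar pattern over the 12 libraries were sought among 15009 other tested genes of at least 1 CPM on average. Likeness was the root mean square difference of log2 CPM after each gene was centred on its own mean. Closest to Elovl6 were Hlf (0.118), Gnpda1 (0.224) and Celf2 (0.225). Closest to Fasn were Npc2 (0.116), Hsdl1 (0.121) and Washc2 (0.123), and closest to Scd1 were Ptprd (0.105), Stard4 (0.145) and Lhfpl4 (0.158). Relative to its own mean, Hlf was at 0.87 with FoxOi_Loperamide, -0.14 with FoxOi, 0.01 with Loperamide and -0.74 in DMSO on the log2 scale.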

How the data were processed

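The authors deposited raw counts per gene as whole numbers and FPKM values, each with 1 column per library. Per the labels' protocols, stranded mRNA libraries were read as single reads of 50 bases. The builds mm10 and GRCm38 and the tools DESeq2, STAR (2.7.5a) and Picard (2.19.2) are listed in the submitters' processing notes. How reads were counted, and with which strand setting, is not given in the sources used here. Each deposited FPKM value is the count over 1 factor per gene and 1 per library, the second within 0.226% of a DESeq2 size factor. Of all gene locations, 98.8% equal those of GENCODE M21, including all 10 members.

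Counts were fitted in edgeR 4.0.16 (R 4.3.3) over all 12 libraries with the group as the only term, after filterByExpr (minimum count 10, minimum total 15), with TMM scaling, robust quasi-likelihood dispersion and a prior count of 0.125. The SE was derived from the log2 fold change and the F statistic of its test, and p-values were adjusted by Benjamini and Hochberg over 16808 genes. Within groups, pairs of libraries had a chi-square per degree of freedom of 5.09 to 32.1, above counting noise, and each library was treated as 1 replicate. This check cannot tell separate cultures from repeat preparations of 1 culture, since both can differ by more than counting noise. The test was tried on simulated data with known changes. The simulated libraries shared no effect of the replicate number, unlike the correlated real ones, and no result of that trial is used here. The members, the lists of pathway genes and the cell markers were chosen with earlier results of these data known. Named from each list are up to 4 genes with the smallest adjusted p against DMSO, together with Srebf1, Mlxipl, Insig1 and Nr1h3. Srebf2 and Nr1h2 are given outside this rule as relatives of Srebf1 and Nr1h3, and their values were not followed under the alternatives. A gene that this rule names is not reported here. Other scalings, filters, DESeq2 1.42.0, limma 3.58.1 on log2(FPKM + 1) and log2(FPKM + 0.1), a replicate block and leaving out each library were tried as alternatives. Shared stretches are runs of 50 bases found in transcripts of another gene in GENCODE M21. Promoter windows are from RefSeq. Proteins were not used here.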

Additional observations from a re-analysis of the deposited data

Results flagged for a closer look

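By the interaction test without a replicate block, the effect of loperamide was called different with and without the inhibitor in Fads1 and Me1. For Fads1 the difference was -0.39 on the log2 scale (edgeR adjusted p = 0.0221). With the inhibitor, loperamide gave 0.25 (FoxOi_Loperamide against FoxOi), and without it 0.64 (Loperamide against DMSO). For Me1 the difference was -0.42 (edgeR adjusted p = 0.0391), with loperamide at -0.15 with the inhibitor and at 0.27 without it. Both differences had the same sign within each of the 3 replicate numbers, which hold the same libraries as the test. That also held for Acly, Scd1, Scd2, Elovl6 and Fads2, which were not called. The call of Fads1 was lost without 8 of the 12 single libraries and that of Me1 without 11, with the values given in the account of the interaction above. With no filter both calls were lost, while Scd1 and Scd2 were called with positive values. With the replicate number as a block, Acly, Scd1, Scd2 and Elovl6 were called with positive values, beside Fads1 and Me1.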

How the results depend on the processing

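Of 42 calls of the 10 genes, 29 held under every alternative, and the other 13 are given in the report with the settings that ended them. Of 1100 values under alternatives, 21 changed sign, none of them called, and none of those results had passed 0.105 on the log2 scale. With library totals Scd1 and Fads2 with FoxOi against DMSO became 0.00248 and 0.00823, Acly with Loperamide 0.0234, Fads2 with FoxOi_Loperamide against DMSO 0.0547 and against FoxOi 0.0465, the interaction of Acaca -0.00701, and Nr1h3 with FoxOi 0.0551. Fads2 in FoxOi_Loperamide against FoxOi was 0.0176 with no filter, 0.00245 on log2(FPKM + 1), filtered or not, and 0.00248 on log2(FPKM + 0.1). Hsd17b12 with FoxOi_Loperamide against DMSO was -0.00388 with DESeq2 size factors and -0.00344 by DESeq2. Leaving out single libraries, that value ran from -0.038 to 0.025, Nr1h3 from -0.24 to 0.0372 with FoxOi and from -0.15 to 0.13 with FoxOi_Loperamide, and Fads2 in FoxOi_Loperamide against FoxOi from -0.0336 to 0.0421. In the same way the interaction of Acaca ran from -0.0308 to 0.14, and in FoxOi against Loperamide Elovl6 ran from -0.21 to 0.0554, Fasn from -0.0108 to 0.12 and Me1 from -0.0638 to 0.0834. The number of the 10 genes called in the interaction ran from 0 to 2 and was 1 on unfiltered log2(FPKM + 1), against 2. The fits without a library hold fewer libraries and the unfiltered ones hold more genes, and the cause of the changes was not tested.

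The labels number the libraries 1 to 3 in each group, and each number goes with 1 code that all 4 groups share, without saying what number or code marks. Deviations of same-numbered libraries from their group means correlated at 0.0753 to 0.442 over 18 pairs, those of different numbers at -0.402 to 0.0785, and all 12 libraries correlated best with their own number, a hint from the data and not the design. The 3 deviations of a group sum to 0, so positive values for same numbers push those of different numbers down. The negative values are therefore not separate evidence. With the replicate number as a block, 8179 genes were called with Loperamide against DMSO (5370 without), 7504 with FoxOi_Loperamide against FoxOi (4465 without) and 4334 in the interaction (1594 without). Under the block 6 of the 10 genes were called in the interaction, with Acly at 0.21 (adjusted p = 0.0457), Scd1 at 0.54 (0.000164), Scd2 at 0.53 (6.55e-05) and Elovl6 at 0.44 (0.00774) beside Fads1 and Me1. The block also called Acss2 in FoxOi against DMSO (0.0147), Me1 in FoxOi_Loperamide against DMSO (0.0435) and against FoxOi (0.0471), Acly in FoxOi_Loperamide against FoxOi (0.0353) and Scd2 in FoxOi against Loperamide (0.000649), and it ended none of the 42 calls. Of the lists, it called 11 elongation and desaturation genes (7 without), 4 synthase and carboxylase genes (2 without) and 11 oxidation genes (5 without) with Loperamide, and 11 supply genes (7 without) and 1 synthase and carboxylase gene (0 without) with FoxOi_Loperamide, all against DMSO. Scd2 in FoxOi against Loperamide was also called with no filter (0.0107). Acacb had 33 to 92 counts summed over the 3 libraries of a group, which limits the precision of its values.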
